A study of Mus musculus with 6 samples.

Results

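Chemokines are small secreted proteins that guide leukocytes along their gradients by way of G protein-coupled receptors, and they are sorted into CC, CXC and CX3C classes by the spacing of the first conserved cysteines. Fibroblasts of the lung are a known source of them: Ccl2 and its relatives draw monocytes, Cxcl1 and Cxcl5 draw neutrophils, Cxcl12 holds Cxcr4-bearing cells in place, and Csf1 is the growth factor that keeps macrophages alive. Here, 10 genes were followed in TGFβ-exposed mouse lung fibroblasts (LFs), 9 chemokine genes of these classes and Csf1. They were chosen by their symbols among the 55364 Ensembl genes listed in the count tables, and each symbol matched exactly 1 gene.

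Primary LFs came from C57Bl6/J mice of 8 to 10 weeks and were used at passage 2 to 3. All 6 cultures were starved of serum and then exposed to 10 ng/ml TGFβ1 for 24 h, so that no culture without TGFβ was part of the comparison. The groups were 3 libraries of wt LFs and 3 of LFs that the sample labels call TKS5 knockout and the study names Tks5+/-, heterozygous for an allele of Sh3pxd2a, the gene of the podosome scaffold Tks5, targeted in all cells. The methods describe both a tm1b and a tm1d allele, and which of them these cells carried is not given in the sources used here. RNA was read by Quant-Seq, which primes at the poly(A) tail and counts the end of each transcript, and levels are given as CPM, the counts scaled to a common library size. The study states that its samples were independent biological ones, while the labels do not tie the replicates to animals.

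The libraries held 1344507 to 2369882 counts each. The mean level of Sh3pxd2a was 113 ± 16.5 CPM for wt against 138 ± 11.1 for the libraries labelled Tks5+/- (SD, n = 3 each). By Q-RT-PCR the study reported reduced Tks5 expression in its Tks5+/- LFs. The reads counted here come from the transcript end and not from the targeted exon, and why they show no fall was not tested. The directions below thus rest on the labels. The fibroblast genes Col1a1, Acta2 and Vim were read with at least 1152 counts in every library. Of 10346 genes kept for the test, edgeR called 22.8% as higher under the Tks5+/- label and 22.1% as lower, 44.9% together, where a call took an adjusted p below 0.05 with at least a 1.2-fold difference. Any share of the chemokine genes or of the gene lists has to be read against these. The 3 libraries with this label are named Tks5+/- libraries from here on.

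Of the 10 genes, 8 passed the filter on low counts, which asked for about 4.89 raw CPM in 3 libraries. In edgeR's quasi-likelihood test, Ccl2, Ccl7, Cxcl1 and Csf1 fell in the Tks5+/- libraries and Cxcl12 rose, while Ccl20, Cxcl5 and Cx3cl1 were not called. The 4 falls and 1 rise stand beside backgrounds of 22.1% and 22.8% of all genes tested. The median log2 fold change of the 8 genes was -0.85, against -0.05 over all genes tested. Ccl20 passed the filter by its wt libraries alone, Cx3cl1 by the wt libraries and 1 of the Tks5+/- libraries, and Ccl5 and Cxcl10 did not pass it. In bulk RNA, fewer cells of a type and less RNA per cell cannot be told apart.

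**Figure D1:**
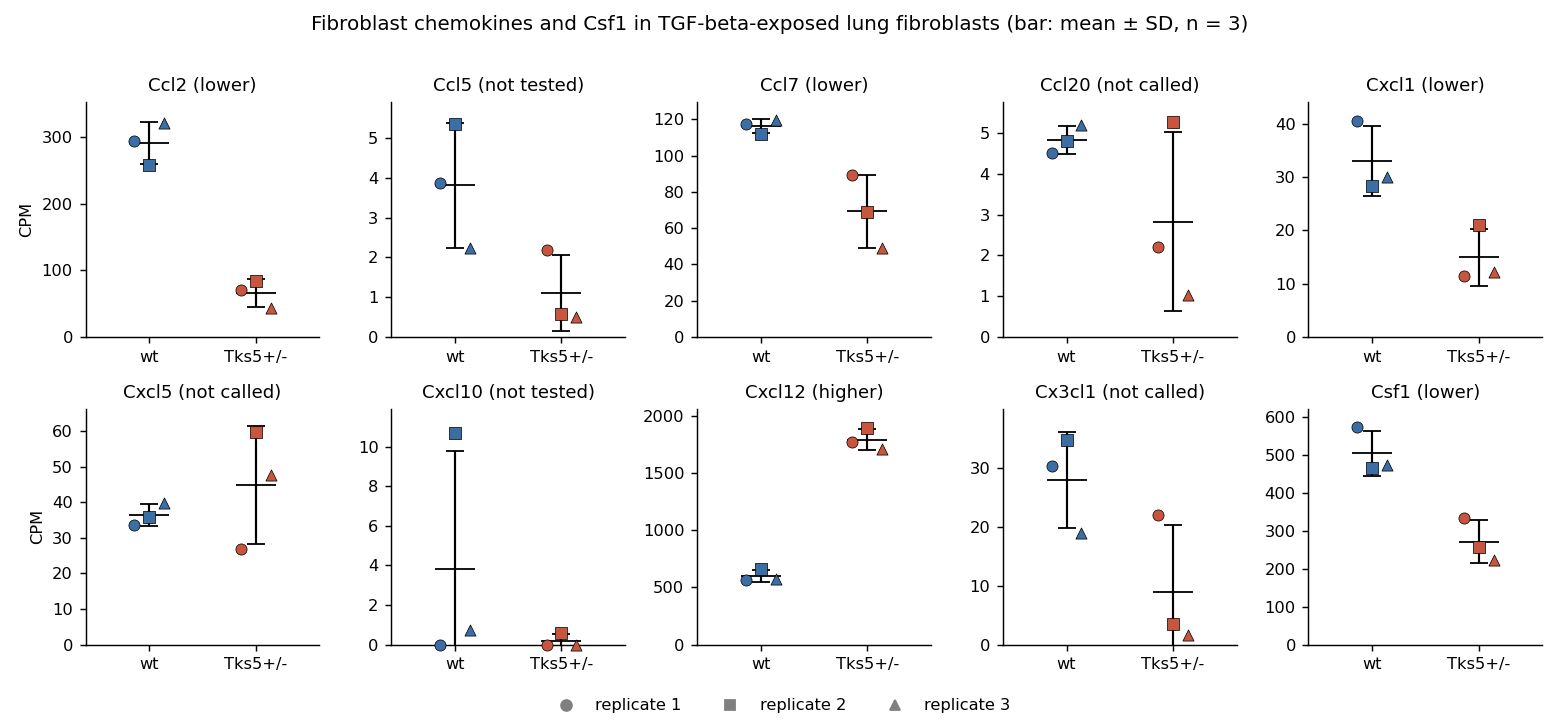
Level in CPM (linear axis from 0) of each of the 10 genes by library, with wt LFs on the left and the Tks5+/- libraries on the right; point shapes give the replicate number and bars the mean ± SD of 3 libraries. Ccl2, Ccl7, Cxcl1, Csf1 and, by a narrow margin, Ccl5 sit lower and Cxcl12 higher on the right, without overlap. The points of Cxcl5, Ccl20, Cx3cl1 and Cxcl10 overlap. Of all genes tested, 27.6% lay lower and 26.1% higher without overlap.

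Stretches of promoter sequence are given for the genes of this set that RefSeq promoter windows cover, because binding motifs of NF-κB and of interferon-activated factors are the textbook features of inflammatory chemokine promoters. The windows run from 250 bases before to 50 after the start site (build GRCm38.p6), and 6 of the 10 genes were matched, namely Ccl20, Cxcl1, Cxcl10, Cxcl12, Cx3cl1 and Csf1. The κB motif, searched on both strands, was in 4 of them and in 8.46% of 32851 promoter windows of all genes. Capitals mark the matched motif, and positions are counted from 0 at the start site.
Ccl20, κB at -80, chr1:83116676-83116705, plus strand: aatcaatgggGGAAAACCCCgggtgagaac
Cxcl1, κB at -71, chr5:90891164-90891193, plus strand: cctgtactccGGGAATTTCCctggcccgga
Cxcl10, κB at -159, chr5:92349029-92349058, minus strand: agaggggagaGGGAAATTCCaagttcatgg
Cxcl10, κB at -104, chr5:92348974-92349003, minus strand: tcggtttacaGGGGACTTCCctcgggttgc
Csf1, κB at -154, chr3:107760604-107760633, minus strand: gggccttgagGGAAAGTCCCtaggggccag
Cxcl10, interferon-stimulated response element core at -213, chr5:92349083-92349112, minus strand: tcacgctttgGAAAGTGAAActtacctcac
Cxcl12, GC box at -33, chr6:117168490-117168519, plus strand: cacactccaggcCCGCCCcttgatgagccc

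The κB matches of Cxcl1 at -71 and of Cxcl10 at -104 each overlap a further match shifted by 1 base. The interferon-stimulated core was in 3.44% of all windows, and of the 6 matched genes Cxcl10 alone held it. The GC box, searched as GGGCGG, was in the windows of Cxcl12, Cx3cl1 and Csf1 and in 35.7% of all windows, and the Cxcl12 window held 5 matches, of which those at -16 and -11 overlap. The AP-1 motif TGANTCA was found in Cxcl10 (7.81% of all windows) and TATAAA in Cx3cl1 (13.6%). A match is a description of these letters only. Of the genes with a κB match, Cxcl1 and Csf1 were called lower, Ccl20 was not called and Cxcl10 was not tested. Of those without one, Cxcl12 was called higher and Cx3cl1 was not called. Ccl2, Ccl5, Ccl7 and Cxcl5 had no window. A link between these motifs and the levels was not tested.

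Ccl2, also called MCP-1, is the main ligand of Ccr2 on monocytes. Its gene spans 82035571 to 82037453 of chromosome 11 (GRCm38, forward strand), and the gene model Gm17268 on the other strand, which overlaps it, had 0 counts. Ccl2 was read at 294, 258 and 321 CPM in wt replicates 1 to 3 against 70.2, 83.7 and 43.0 in the Tks5+/- libraries. Every wt library was thus far above every one of the others. The level went from 291 ± 31.2 CPM to 65.6 ± 20.7 (SD, n = 3 each), which edgeR put at -2.15 ± 0.24 (SE) on the log2 scale, adjusted p = 3.09e-07, or 4.45-fold lower.

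Ccl7, or MCP-3, also binds Ccr2 and lies 8259 bases beyond Ccl2 on the same strand. Its CPM were 117, 112 and 119 in wt replicates 1 to 3 against 89.5, 69.0 and 49.1 in the Tks5+/- libraries. The wt libraries lay close together and the others were spread below them. The change was from 116 ± 3.88 CPM to 69.2 ± 20.2 (SD, n = 3 each), which edgeR put at -0.75 ± 0.22 (SE) on the log2 scale, adjusted p = 0.0093. It was not called when Tks5+/- replicate 3, the lowest library, was left out (-0.52, adjusted p = 0.0866), and a correction for transcript length moved it to -1.35 (adjusted p = 7.93e-05).

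A ratio of these neighbours inside one library does not depend on how the libraries were scaled. There were 2.51, 2.31 and 2.69 counts of Ccl2 for each count of Ccl7 in wt replicates 1 to 3, while the Tks5+/- libraries had 0.785, 1.21 and 0.875. The groups did not overlap. The mean log2 ratio moved by -1.41, for which the exact two-sided permutation test gave p = 0.1, as low as 3 libraries against 3 can reach.

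Ccl5, or RANTES, an attractant of T cells and monocytes, and Ccl20, the ligand of Ccr6, were barely read. Ccl5 had 6, 10 and 6 counts in wt replicates 1 to 3 against 4, 1 and 1 in the Tks5+/- libraries. Its CPM did not overlap, but the lowest wt library (2.22) and the highest of the others (2.195) nearly met (exact two-sided permutation test, p = 0.1). For Ccl20 the wt libraries held 7, 9 and 14 counts, the Tks5+/- ones 4, 9 and 2, of which replicate 2 (5.27 CPM) lay above the highest wt library (5.19). Its log2 fold change of -0.81 (95% interval -1.96 to 0.34, adjusted p = 0.247) was not past the threshold, and at this depth neither a fall of that size nor its absence could be shown.

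Cxcl1 and Cxcl5 are neutrophil attractants that share the receptor Cxcr2, and they lie 129617 bases apart in the CXC cluster of chromosome 5. Cxcl1, whose κB stretch is given above, had 40.5, 28.4 and 30.03 CPM in wt replicates 1 to 3 against 11.5, 21.1 and 12.3 in the Tks5+/- libraries. All 3 wt libraries were above all 3 others. Cxcl1 fell from 33.0 ± 6.61 CPM to 15.0 ± 5.30 (SD, n = 3 each), which edgeR put at -1.14 ± 0.30 (SE) on the log2 scale, adjusted p = 0.00328.

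Cxcl5 was not called. It had 33.5, 35.9 and 39.7 CPM in wt replicates 1 to 3 against 26.9, 59.7 and 47.6 in the Tks5+/- libraries, whose replicate 1 was the lowest of all libraries and replicate 2 the highest. The log2 fold change was 0.29 (95% interval -0.25 to 0.83, adjusted p = 0.381). Without Tks5+/- replicate 1 it was called higher (0.61, adjusted p = 0.0475), and with library totals as the only scaling it was below 0 (-0.15). The ratio of Cxcl1 to Cxcl5 counts was 1.21, 0.791 and 0.757 in wt LFs and 0.429, 0.353 and 0.258 in the Tks5+/- libraries, a mean log2 difference of -1.39 without overlap (exact two-sided permutation test, p = 0.1).

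**Figure D2:**
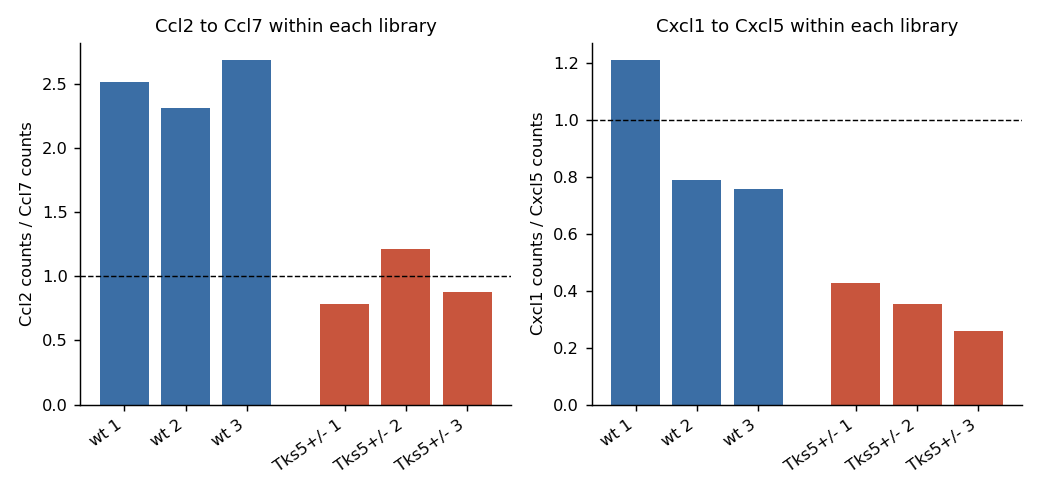
Counts of Ccl2 divided by counts of Ccl7 (left) and of Cxcl1 divided by Cxcl5 (right) in each library, on linear axes from 0; blue bars are wt replicates 1 to 3, red bars the Tks5+/- libraries, and the dashed line marks equal counts. Both ratios are lower in each of the 3 Tks5+/- libraries than in any wt library.

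Cxcl10, or IP-10, is an interferon-inducible ligand of Cxcr3. It had 0, 20 and 2 counts in wt replicates 1 to 3 against 0, 1 and 0 in the Tks5+/- libraries. Nearly all of its reads thus came from wt replicate 2, and no fold is given. Art3, which spans the gene on the other strand, had 19 counts over all libraries. Counts were summed over transcript ends, and whether the ends counted for both genes overlap was not tested.

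Cxcl12, or SDF-1, is a ligand made by stromal cells whose receptor Cxcr4 retains stem cells and leukocytes, and it can also bind the scavenger receptor Ackr3. Its gene spans 117168535 to 117181367 of chromosome 6 (GRCm38, forward strand). Its CPM were 563, 665 and 577 in wt replicates 1 to 3 against 1775, 1895 and 1714 in the Tks5+/- libraries. This was the only one of the 10 genes that was higher in all 3 of those libraries than in each wt library, a pattern that 26.1% of all genes tested showed. The rise was from 602 ± 55.0 CPM to 1795 ± 92.1 (SD, n = 3 each), 2.98-fold, and edgeR put it at 1.58 ± 0.20 (SE) on the log2 scale, adjusted p = 2.17e-06. The counts behind it were 875 to 1556 in wt LFs and 3234 to 3350 in the others.

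Cx3cl1, or fractalkine, is made as a membrane-bound protein that tethers Cx3cr1-bearing leukocytes until it is shed by Adam10 and Adam17. It had 30.3, 34.8 and 18.9 CPM in wt replicates 1 to 3 against 21.95, 3.51 and 1.54 in the Tks5+/- libraries. Replicate 1 of the latter was above wt replicate 3, while replicates 2 and 3 were far below all wt libraries. With this spread, the log2 fold change of -1.62 had a 95% interval from -3.69 to 0.46 and was not called (adjusted p = 0.173). Without Tks5+/- replicate 1 it was -3.40 and called (adjusted p = 3.42e-05). The summed endothelial markers of that library (57.6 CPM) lay between those of the other Tks5+/- libraries (45.6 and 60.4), and its summed epithelial markers were 3.84 CPM against 3.51 and 2.05. In that library, Egfl7 (19.2 CPM) and Ramp2 (35.1 CPM) held most of the endothelial sum, and Krt19 held all of the epithelial one. Sums carried by so few genes cannot show how many such cells were present. The part of these cells in the Cx3cl1 level was not tested.

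Csf1, the macrophage colony stimulating factor, signals through the receptor Csf1r. Its gene spans 107741048 to 107760469 of chromosome 3 (GRCm38, reverse strand). Its CPM were 572, 464 and 474 in wt replicates 1 to 3 against 333, 257 and 223 in the Tks5+/- libraries. The groups lay apart, as they did for Ccl2, Ccl7 and Cxcl1 among the genes tested; of all genes tested, 27.6% lay apart in this direction. Csf1 fell from 504 ± 59.7 CPM to 271 ± 56.3 (SD, n = 3 each), which edgeR put at -0.89 ± 0.21 (SE) on the log2 scale, adjusted p = 0.0015.

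**Figure D3:**
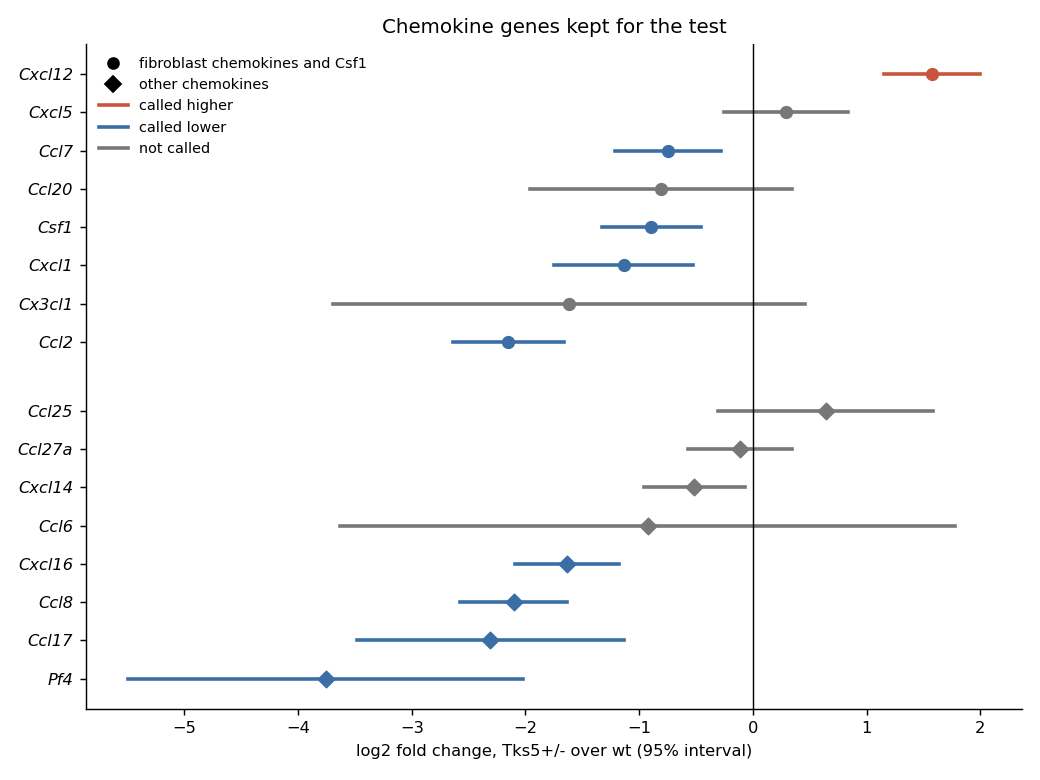
log2 fold change of the Tks5+/- libraries over wt LFs with its 95% interval from edgeR, for the 8 tested genes of the set (circles) and the 8 tested other chemokine genes (diamonds). Cxcl12 at 1.58 is the only chemokine gene called higher, and 4 circles and 4 diamonds are called lower. Of all genes tested, 22.8% were called higher and 22.1% lower.

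The remaining chemokine genes were taken as a list of 31, of which 19 had any count and 8 were tested. Of these, 4 fell, 4 were not called and none rose, with a median log2 fold change of -1.28. Of the 4 that fell, Ccl17 and Pf4 passed the filter through wt libraries alone, so that the filter left them no other direction. The median of the other 6 was -0.72, with 2 lower, beside 22.1% lower of all genes tested. Ccl8, or MCP-2, a member of the same cluster as Ccl2 and Ccl7, had 127, 163 and 130 CPM in wt replicates 1 to 3 against 26.9, 39.8 and 31.2 in the Tks5+/- libraries. Its log2 fold change of -2.10 (SE 0.23, adjusted p = 2.57e-07) stands beside -2.15 for Ccl2 and -0.75 for Ccl7. Cxcl16, a transmembrane chemokine shed like Cx3cl1, fell by 1.64 on the log2 scale (adjusted p = 3.86e-06). Ccl17 changed by -2.31 (adjusted p = 0.00212), on at most 22 counts per library. Pf4, a product of platelets and some macrophages, changed by -3.76 (adjusted p = 0.00199), and wt replicate 3 held 81 of its reads against 9 and 16 in the other wt libraries.

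Of 23 chemokine receptor genes, 14 had any count and 2 passed the filter. Ackr3, the scavenger of Cxcl12, had a log2 fold change of -0.36 (adjusted p = 0.503) and Cxcr5 one of 0.30 (adjusted p = 0.583). For Cxcr4, chosen after its values were seen, the wt libraries held 5, 9 and 36 counts and each of the Tks5+/- ones 0, where a count of 0 allows up to 3. Of the colony stimulating factor family, Csf1r was the one gene tested and fell from 33.1 ± 10.9 CPM to 12.8 ± 5.50 (SD, n = 3 each), a log2 fold change of -1.39 (adjusted p = 0.00179). Csf1r is also a macrophage marker, and its wt libraries ranged from 21.4 to 43.0 CPM.

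Among 9 genes for proteins that cleave or bind chemokines, 6 were tested, 2 fell and 1 rose, beside 44.9% called of all genes tested. The collagenase Mmp8 changed by -3.54 (adjusted p = 1.76e-09), and Mmp2, a gelatinase that can cleave Ccl7 and Cxcl12, by -1.73 (adjusted p = 8.84e-06). The heparan sulphate proteoglycan Sdc4, named after its value was seen, rose by 0.67 (adjusted p = 0.0204). The sheddases Adam10 and Adam17, named for their part in Cx3cl1 shedding, were not called, at -0.53 (adjusted p = 0.0753) and -0.22 (adjusted p = 0.418).

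Of 28 genes of NF-κB signalling, its inputs and its feedback, 23 were tested, 8 fell, 2 rose and 13 were not called, with a median of -0.56. The 10 called stand beside 44.9% of all genes tested, a share close to theirs, made up of 22.1% lower and 22.8% higher. Tlr2, not called, passed the filter through wt libraries alone, and the median of the other 22 genes was -0.48. Icam1, the leukocyte adhesion receptor, fell by 1.84 (adjusted p = 1.01e-05) and Tlr3, the sensor of double-stranded RNA, by 2.40 (adjusted p = 6.78e-05). The 2 that rose, named after their values were seen, were Il6 (0.79, adjusted p = 0.0188) and the adaptor Myd88 (0.61, adjusted p = 0.0246). Of 21 genes of interferon signalling, 16 were tested, 9 fell, none rose and 7 were not called, with a median of -1.06, beside 22.1% lower and 22.8% higher of all genes tested. Ifit1, Ifit3 and Stat2 passed the filter through wt libraries alone, and of the other 13 genes 7 fell, with a median of -0.94. Bst2 changed by -3.21 (adjusted p = 6.54e-09) and Isg15 by -2.06 (adjusted p = 6.36e-04), both products of interferon-stimulated genes.

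The summed levels of macrophage, endothelial, epithelial and mesothelial markers also lay apart between the groups. Of 19 macrophage markers, all had counts, 12 were tested, and 5 fell. Of these 5, Adgre1, Cd68 and Itgax passed the filter through wt libraries alone, so that their direction was set by it. Of the other 9 tested genes 2 were called lower, a share close to the 22.1% lower of all genes tested. The median log2 fold change of these 9 was -2.23, so that the share of calls alone does not describe them. The summed level of the list was 388 to 2464 CPM in wt LFs and 151 to 167 in the Tks5+/- libraries. Wt replicate 3 held the highest sum, against 452 and 388 in the other wt libraries. Adgre1, Aif1, Ptprc and Spi1 were at 0 in all Tks5+/- libraries, while C1qa, C1qc, Cd14, Itgam and Mrc1 overlapped between the groups. C1qc had 1.93, 1.61 and 21.9 CPM in wt replicates 1 to 3 against 5.49, 6.44 and 3.58 in the Tks5+/- libraries. In wt replicate 3, Cxcl1, Csf1 and Cxcl12 lay between the other wt libraries, and Ccl2 (321 against 258 and 294 CPM) and Ccl7 (119 against 112 and 117) were the highest. Without that library Ccl2 was at -2.08 (adjusted p = 1.03e-07), Ccl7 at -0.73 (adjusted p = 0.0199), Cxcl1 at -1.21 (adjusted p = 0.00479), Csf1 at -0.94 (adjusted p = 0.00203) and Cxcl12 at 1.54 (adjusted p = 1.28e-05). Leaving that library out does not remove the difference in the summed macrophage markers. Their sums in the other wt libraries (452 and 388 CPM) were still above those of the Tks5+/- libraries (151 to 167). Ccl6, a chemokine of myeloid cells named after its values were seen, had 35.4, 28.9 and 242 CPM in wt replicates 1 to 3. The Tks5+/- libraries held 42.8, 57.3 and 64.5 CPM, above wt replicates 1 and 2 and below wt replicate 3.

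Endothelial markers summed to 119 to 152 CPM in wt LFs and 45.6 to 60.4 in the others, and Pecam1 and Tek were at 0 in all Tks5+/- libraries. Of the 5 tested genes, Emcn, Kdr and Pecam1 passed the filter through wt libraries alone, Egfl7 was lower (-1.67) and Ramp2 was not called (0.32). Epithelial markers summed to 28.4 to 57.5 and 2.05 to 3.84 CPM, with Epcam and Cdh1 at 0 in the Tks5+/- libraries, while Sftpc, Sftpb and Nkx2-1 were at 0 in all libraries. Krt19 overlapped, with 2, 5 and 1 counts in wt replicates 1 to 3 and 7, 2 and 2 in the Tks5+/- libraries. Mesothelial markers summed to 18.2 to 23.8 and 2.56 to 8.23 CPM. The tested genes of the epithelial (Cldn4 and Krt18), mesothelial (Upk3b) and neutrophil (S100a8) lists all passed the filter through wt libraries alone, so that being lower was the one direction it left them. The 8 lymphocyte markers summed to at most 1.85 CPM. The part of these cell types in the chemokine levels was not tested.

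Markers of the stromal cells themselves moved both ways. Of 11 fibroblast markers, all tested, 4 rose, 2 fell and 5 were not called, beside 22.8% higher and 22.1% lower of all genes tested. Their sums were 9125 to 11442 CPM in wt LFs and 10128 to 14122 in the Tks5+/- libraries. Thy1 (1.93, adjusted p = 1.48e-06) was among those that rose and Fn1 (-1.55, adjusted p = 3.56e-06) among those that fell. Of 7 smooth muscle and pericyte markers, 6 were tested, of which 4 fell and 1, Cnn1, rose (1.00). Of all genes tested, 22.1% were lower and 22.8% higher. The list summed to 447 to 507 CPM in wt LFs and to 606 to 726 in the Tks5+/- libraries, higher without overlap. Cnn1 alone held 219 to 271 CPM in wt LFs and 408 to 551 in the others. Cspg4 and Notch3, among those that fell, passed the filter through wt libraries alone.

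**Figure D4:**
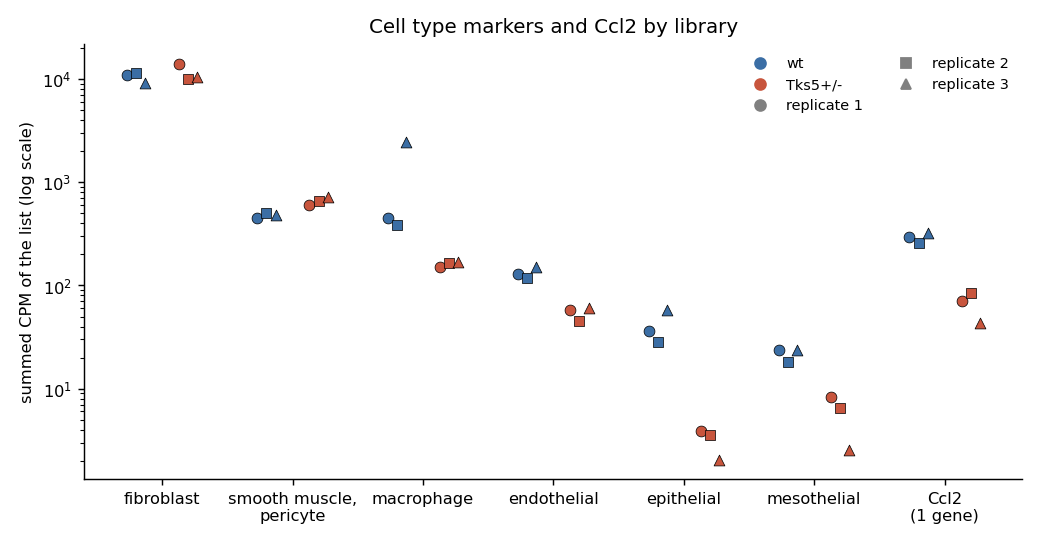
Summed CPM (log axis) of 6 lists of cell type markers and, at the right, the CPM of Ccl2 alone, in each library; blue is wt, red the Tks5+/- libraries, and shapes give replicate numbers. The macrophage list is at 388 to 2464 CPM in the wt libraries, highest in replicate 3, and at 151 to 167 in the Tks5+/- libraries. Ccl2 is at 258 to 321 CPM in the wt libraries and at 43.0 to 83.7 in the Tks5+/- libraries.

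Likeness across the 6 libraries was measured as Pearson's r of log2 CPM, with 0.5 CPM added, against genes with at least 50 counts on average. Cdh23 was most like Ccl2 (r = 0.995), Tmtc3 most like Ccl7 (r = 0.995), Usp34 most like Cxcl1 (r = 0.990), Mgrn1 most like Csf1 (r = 0.994) and Minos1 most like Cxcl12 (r = 0.999). For the genes not called, these were Mocs2 for Ccl20 (r = 0.979), Tagap1 for Cxcl5 (r = 0.981) and 1700030K09Rik for Cx3cl1 (r = 0.997). Each is the highest of 5184 or 5185 values over libraries in 2 groups and is given as a description.

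**Figure D5:**
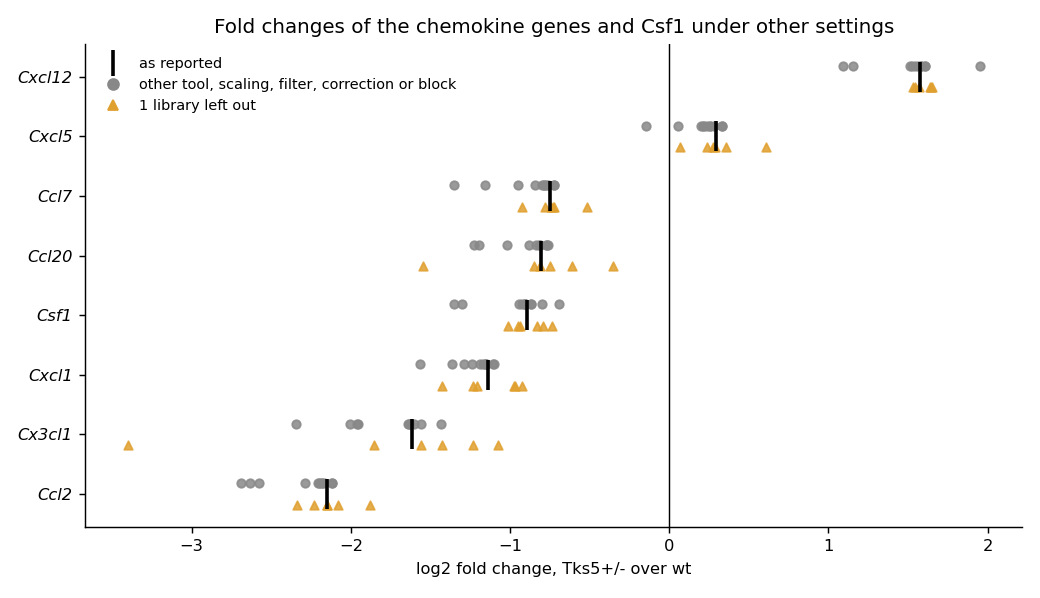
log2 fold change of each tested gene of the set as reported (black bars), under other tools, scalings, filters, corrections or the replicate block (grey circles), and with 1 library left out (orange triangles). Ccl2 stays between -2.69 and -1.88 and Cxcl12 between 1.09 and 1.95, while Cx3cl1 runs from -3.40 to -1.07 and Cxcl5 from -0.15 to 0.61.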

How the data were processed

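Raw counts are the values the authors deposited: Quant-Seq reads were trimmed (Trim Galore), mapped to GRCm38 (HISAT2, then Bowtie2 for what was left) and summed by metaseqR2 over the transcript ends of each gene. The deposited normalized table is used as a score: the authors normalized it with EDASeq and rounded it, and its sorted values are identical between the 6 libraries. Whether counting used strand is not given in the sources used here. Symbols matched 55104 of 55364 genes (GENCODE M21).

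The raw counts went into edgeR 4.0.16 under R 4.3.3 (filterByExpr, TMM, robust quasi-likelihood F test, Benjamini-Hochberg over 10346 genes), the source of each adjusted p where no other tool is named. Alternatives were DESeq2 1.42.0, limma-voom (limma 3.58.1), other scalings and filters, the normalized table with limma on log2(value + 1), loess corrections for length of the longest transcript and GC content (span 0.5), a block on the replicate number, and the omission of single libraries. The study's combination of 9 tests was not rebuilt. Standard errors are from the fit, and CPM use the scaled library sizes. Intervals and the limit of 3 counts for a count of 0 cover counting or replicate error only.

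The genes and lists were chosen with earlier results of these data known. Named were the 10 genes, called chemokine, receptor and colony stimulating factor genes, up to 2 genes with the smallest adjusted p in other lists, defining markers of cell types and the most alike gene of each. Tables and plots used pandas 2.3.3, numpy 2.4.6, scipy 1.17.1 and matplotlib 3.10.9.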

Additional observations from a re-analysis of the deposited data

How the results depend on the processing

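Ccl2, Cxcl1 and Csf1 kept their falls and Cxcl12 its rise, and their calls, under all 17 alternatives run for each. Their log2 fold changes ran from -2.69 to -1.88 for Ccl2, -1.57 to -0.93 for Cxcl1, -1.35 to -0.69 for Csf1 and 1.09 to 1.95 for Cxcl12. Across genes, which are not independent replicates, the log2 fold change had a Spearman rho of -0.397 with transcript length. Under the length correction Ccl7 was at -1.35, Ccl2 at -2.69 and Cxcl12 at 1.95, and Ccl7 was at -1.16 with library totals. Library totals alone moved the median of all genes from -0.05 to -0.47, and under this scaling Cxcl5 was at -0.15 (adjusted p = 0.654), below 0 in place of above, while Cxcl12 was still called at 1.16. Cx3cl1, not called with edgeR, was called with limma-voom (-2.34, adjusted p = 0.0144), with no filter on low counts (-1.64, adjusted p = 0.00447) and with the replicate number as a block (-1.96, adjusted p = 0.00615). Its adjusted p ran from 3.42e-05 to 0.375 over its 16 alternatives, and the cause was not tested. It could not be tested with at least 10 counts in every library, nor could Ccl20, which was called under none of its 16 alternatives (adjusted p from 0.0689 to 0.667). Without a filter on low counts, Ccl5 was not called (adjusted p = 0.135) and Cxcl10 was (adjusted p = 0.00402), although without wt replicate 2 its mean CPM differed by -0.18.

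The deviations of same-numbered libraries from their group means had correlations of -0.001, -0.0637 and 0.082. Such values cannot show whether cultures with the same number were paired, and the labels do not say. With the block, 4668 genes were called against 4642. Leaving out 1 library at a time gave -0.92 to -0.52 for Ccl7, 0.067 to 0.61 for Cxcl5 and -3.40 to -1.07 for Cx3cl1. In these fits 3 to 5 of the 10 genes were called lower and 1 or 2 higher, the second being Cxcl5 without Tks5+/- replicate 1. The adjusted p of Ccl7 ran from 7.93e-05 to 0.0866 and that of Cxcl5 from 0.0475 to 0.881. Counts of 0 to 20 per library set the limit for Ccl5, Ccl20 and Cxcl10.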
